A study of Mus musculus with 5 samples.

Results

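The probes described here were higher in cells with mutant IL7R than in cells with wild-type IL7R when lymphoid progenitors were grown in culture, and lower with the mutant in B cells that had grown from such progenitors in mice. There were 153 of them among 23473 probes on the array. They were chosen by values of these same arrays. The signal of a spot was its median intensity minus the median of the blank spots of that array and colour. A log2 ratio was the signal with the mutant over the signal with the wild type, each raised to at least 50, minus the median of the array over probes with a signal of at least 100 in both colours. A member had a wild-type signal of at least 100 on the CLP culture array and on the B cell array, a log2 ratio of at least 1 on the first and of at most -1 on the second. Of the 23473 probes, 6165 passed the signal minimum, so the members were 2.48% of those that could have been chosen and 0.652% of all.

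IL7R is the alpha chain of the receptor for interleukin-7, a cytokine made by stromal cells. Bound to its ligand together with the common gamma chain, it signals through JAK kinases to STAT5, and mouse lymphoid progenitors need this signal to survive, divide and enter the B and T lineages. The signal normally falls away as B cells mature, and mutations that switch the receptor on without its ligand are known from human acute lymphoblastic leukemia.

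The study set cells transduced with a retrovirus for wild-type IL7R (WT) against cells given a mutant form of it, labelled INS, on 5 two-colour arrays of mouse cells, 1 array for each of 5 settings. In the CLP culture, sorted Balb/c common lymphoid progenitors (CLP) were transduced, then kept 5 to 7 days with OP9 stromal cells, mouse SCF, human IL-7 and human Flt3 ligand, and the GFP+ cells were sorted. Transduced CLP were also given to mice irradiated with 4 Gy, and about day 60 their IgM+B220+ B cells were sorted; only those with INS are labelled leukemic. In the KSL culture, KSL cells (a fraction rich in stem and early progenitor cells) from Balb/c bone marrow or fetal liver were transduced and grown for 4 to 5 days with cytokines that included SCF, IL-6, Flt3 ligand and IL-3, with no IL-7 named. The sample's description starts as in vivo but then, like its title, gives a culture. For the T-ALL array, KSL cells received intracellular Notch1 (ICN) beside WT or INS, and the T-cell leukemias they gave in mice were taken at day 30 to 40, so both sides of that array were leukemic. For the CMP array, the fraction of that name (myeloid progenitors) was sorted about day 40 from recipients of KSL cells described as having a myeloid disorder. Control cells carried a WT IL7R vector in every setting, recipients of KSL cells were lethally irradiated, and cells of each sample were pooled. The sources used here do not give the vectors' promoter.

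WT RNA carried Cy5 and INS RNA carried Cy3 on all 5 arrays, so dye and genotype cannot be told apart. With 1 array per setting there was no spread between samples and no test was made. A difference below is that of 1 pair of pooled samples. Over the 24 spots of each of 2 positive controls the SD of the log2 ratio was 0.08 to 0.13 within an array, a measure of spotting and scanning alone. On 4 arrays 29.5% to 41.5% of probes reached a signal of 100 in a colour, and on the CMP array 15.9% did so in INS and 17.9% in WT. Spots without a probe or with a negative control never reached 100, and of 2736 blank spots at most 7 did on any array. The probe IDs are not paired with genes in the files used here, and 0 of 23473 were found in the reference table, so probes are given by ID, without a gene or a sequence. The labelled cell types could not be set against their marker genes for the same reason. Values given before the KSL culture below include the 2 contrasts that chose the members, and they are a description.

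In the CLP culture the WT signal of the members ran from 100 to 13479 with a median of 235, and the INS signal from 315 to 45923 with a median of 1119. In the B cells the WT signal ran from 102 to 39396 with a median of 604, and the INS signal from 4 to 19167 with a median of 302. The median log2 ratio was 1.83 on the culture array and -2.02 on the B cell array. A probe counted as measured with a signal of at least 100 in either colour. Of all measured probes in the CLP culture 14.4% had INS at least 2-fold above WT and 3.55% at least 2-fold below, and of those that passed the signal minimum 7.85% and 2.97%. In the B cells 12% were higher and 10.5% lower, and after the signal minimum 9.18% and 7.88%. Of the 484 probes higher in the culture after the signal minimum the members were 31.6%, and of the 486 lower in the B cells they were 31.5%. A further 305 probes were higher in the culture and within 2-fold in the B cells, 26 were higher in both, and 47 ran the opposite way to the members. Among the members, 49 were at least 4-fold apart on both arrays and 5 at least 8-fold.

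**Figure D1:**
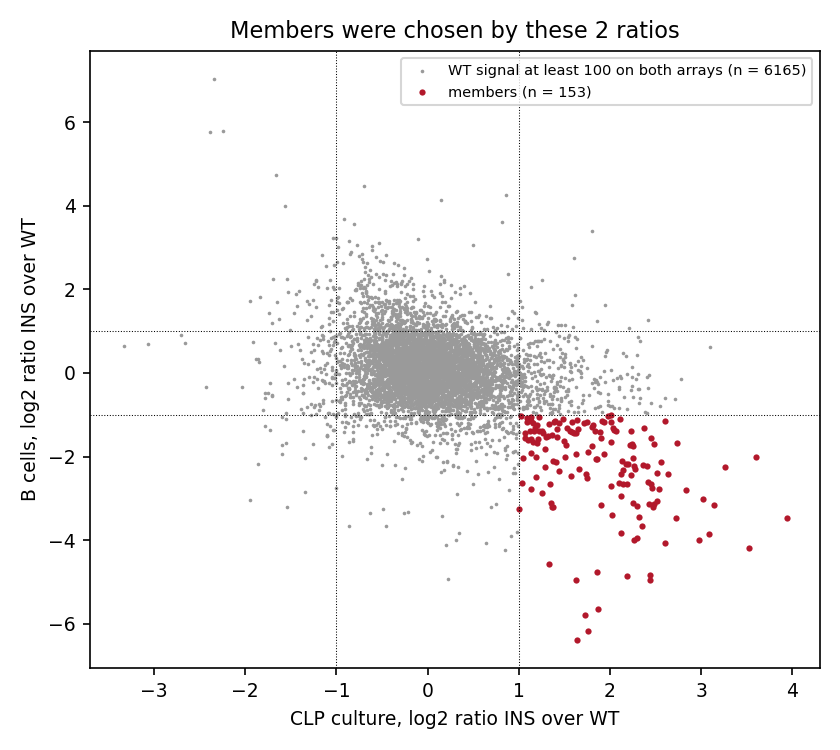
Log2 ratios of INS over WT in the CLP culture (x axis) and the B cells (y axis) for the 6165 probes with a WT signal of at least 100 on both arrays. Each point is 1 probe on 1 array per axis, dotted lines mark 2-fold, and the 153 members (red) fill the lower right corner because the rule took them there, with the lowest B cell ratio at -6.38.

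The members just inside and just outside the limits differed little. M200000532 entered with a log2 ratio of 1.00 in the CLP culture, while M200008936 stayed out with 0.997. M400011656 entered with -1.01 in the B cells, and M300014088 stayed out with -0.986. The lowest WT signal in the CLP culture was 100 for M200013029, and M200003409, with 99, stayed out although its log2 ratios were 2.08 and -3.11. In the B cells the lowest WT signal was 102 for M300000141, against 96 for M400002781 just outside. Without the signal minimum the rule would have taken 319 probes.

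To set the same probe side by side across arrays, each of the 10 signals was taken as log2 and centred on the median of that channel over 2855 probes with a signal of at least 100 in all 10. These centred levels come from arrays processed separately. By their medians the members then had a bright pair of samples, INS culture and WT B cells, and a dim pair, WT culture and INS B cells. Their median centred level was 0.08 in the INS culture and 0.11 in WT B cells, against -1.83 in the WT culture and -2.14 in INS B cells. WT B cells lay above the WT culture for 138 of 153 members, by a median of 1.83, and for 59.6% of the 6165 probes, by 0.20. WT B cells and the INS culture differed by a median of 0.20, against 0.19 over 6108 of the 6165 probes. Single members differed more: 26.8% were at least 2-fold higher in WT B cells and 23.5% lower, against 17% and 9.41%. INS B cells and the WT culture differed by -0.16 over the 128 members with a signal of at least 100 in INS B cells. Over 6134 of the 6165 probes it was -0.07. Of the 128, 16.4% were at least 2-fold higher in INS B cells and 21.1% lower, against 4.42% and 3.16%. The rule used these 4 signals, so this order is partly fixed by the choice.

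The members with the largest difference on both arrays came in very different signals. M200000809 had 1333 in WT and 18435 in INS in the CLP culture, and 3188 in WT and 340 in INS in the B cells. It was 11.5-fold higher with INS in the culture and 18.2-fold lower in the B cells. M200004160 behaved alike, with 967 and 17786 in the culture and 1442 and 255 in the B cells, or 15.3-fold higher and 11.0-fold lower. M200001075 had 208 in WT and 1967 in INS in the culture, 1037 in WT and 127 in INS in the B cells. All 3 had high signals in the KSL culture too, in WT and INS, at 8040 and 25082 for M200000809, 7595 and 21217 for M200004160, and 1188 and 5051 for M200001075.

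The signals of the other members of this group varied as well. M200000865 had 270 in WT and 2746 in INS in the culture, but 373 in WT and 9 in INS in the B cells, where its fold has only a lower bound, at least 14.5-fold lower against the floor of 50. M200011761 went from 222 to 1622 in the culture and from 435 to 46 in the B cells, at least 16.9-fold lower. In the KSL culture it had 5606 in WT and 8520 in INS. M400002434 had 121 and 1284 in the culture and 1025 and 224 in the B cells, and M200001281 had 159 and 1264, then 1152 and 203. M300007209, M400005072 and M400004604 completed the 10, at 8.10-fold, 7.10-fold and 5.80-fold higher in the INS culture and 8.09-fold, 6.95-fold and 6.80-fold lower in INS B cells. In all, 10 members had an INS signal below 50 in the B cells, so that their ratio there is a bound.

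A small group of members, chosen after the values were seen, stood out by 1 sample, WT B cells. The rule used both B cell signals. No such count was made over other probes, so whether this is particular to the members is not known. Of the 7 members with a signal above 20000 in WT B cells, 6 had no signal above 2545 in any other sample: M400011025, M200002417, M300010457, M200003391, M300004076 and M300004234. Their signals were 22211 to 39396 in WT B cells and 596 to 2545 in INS B cells, or 27.3-fold to 83.5-fold lower with INS. In the CLP culture they had 202 to 543 in WT and 918 to 2188 in INS, 3.12-fold to 5.43-fold higher with INS. In the KSL culture they had 253 to 430 in WT and 542 to 1093 in INS, with log2 ratios of 0.07 to 0.57. In T-ALL they had 35 to 384 in WT and 100 to 382 in INS, and in the CMP 5 to 529 and 9 to 561. In the INS culture all 6 lay above the median of the 6165 probes there, 580. All 6 lay below that median in the WT KSL culture (519) and in T-ALL, in WT (422) and INS (804). The next brightest member in WT B cells after the 7 had 11615. The seventh, M300012334, was bright in all 10 samples, from 7370 in INS CMP cells to 37813 in the INS culture.

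**Figure D2:**
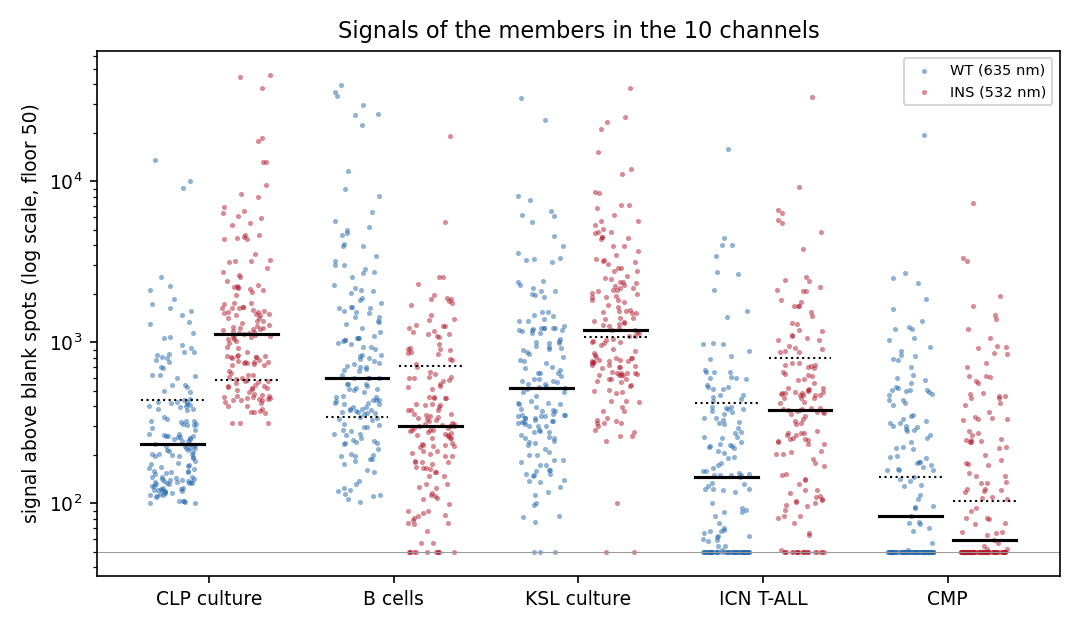
Signal above the blank spots (y axis, log scale, values under 50 drawn at 50) of the 153 members in WT (blue) and INS (red) on each of the 5 arrays (x axis), 1 point per member and channel. Solid bars are the members' medians and dotted bars the medians of the 6165 probes that passed the signal minimum; the members lay above the dotted bar in the INS culture and WT B cells, near it in the KSL culture and below it in T-ALL, where 47 WT signals were under 50.

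The KSL culture, which the rule did not use, held the members about as often as other probes. Their signal reached 100 in WT for 146 of 153 (95.4%, against 95.3% of the 6165 probes) and in INS for 151. WT signals ran from 6 to 32651 with a median of 523, and INS signals from 22 to 37695 with a median of 1199. Over the 151 members with a signal of at least 100 in either colour the median log2 ratio was 0.15, and it was 0.02 over all 9733 probes measured so. Of these members 116 (76.8%) lay above 0, against 54.3% of all measured probes and 49.6% of those that passed the signal minimum. The size was small: 145 of 151 were within 2-fold. Nearly all were measured in both colours, and over those 146 the median was 0.15 as well. Among the 305 probes higher in the CLP culture but within 2-fold in the B cells the median was 0.06, and among the 47 opposite probes it was -0.16. Among the 26 probes higher in INS on both arrays of the rule it was 0.15, as in the members, with 65.4% above 0. None of these differences between lists was tested.

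Only 5 members were at least 2-fold higher in INS in the KSL culture (3.31% of 151), where 0.514% of all measured probes and 0.246% of those past the signal minimum were. One was lower (0.662%, against 0.195% and 0.279%). With the local background subtracted, 5 of 149 members were higher, and the share of all measured probes rose to 2.05%. M400000587 had 551 in WT and 2567 in INS, 2.32-fold higher. M200016125 had 139 and 594, 2.13-fold higher, and M200001075 was 2.12-fold higher. M400004604, with 148 and 623, was 2.10-fold higher, and the fifth, M200001244, had 138 and 564. M400000587 and M200001075 stayed above 2-fold in all 7 settings tried, and M200016125 and M400004604 in 5 of 7. The lower one was M400006088, with 23989 in WT and 23264 in INS, a log2 ratio of -1.05 after centring. Positive control 3, with median signals of 28251.5 in WT and 26238.5 in INS on this array, had a mean log2 ratio of -1.10. M400006088 was also the brightest member in the INS CLP culture, at 45923. M300012334, the second lowest in the KSL culture at -0.80, had 32651 and 37695. M300002250 came next, at -0.46. With loess in place of median centring no member was 2-fold lower in this culture, and only 0.0103% of all measured probes were.

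In Notch1-driven T-ALL the members were less often measured. The WT signal reached 100 for 86 of 153 members (56.2%), against 92.8% of the 6165 probes, and 47 members (30.7%) were below 50, against 2.92%. The INS signal reached 100 for 123 (80.4%, against 97.5%). WT signals ran from 0 to 15924 with a median of 146, and INS signals from 4 to 33383 with a median of 378. For the 305 probes higher in the CLP culture but within 2-fold in the B cells the WT signal reached 100 in 77.4%, and for the 306 probes lower in the B cells but within 2-fold in the CLP culture in 81.0%. The 26 probes higher in INS on both arrays lay close to the members, with 61.5% at 100 or more and 26.9% below 50. Fewer cells of a type and less RNA per cell cannot be told apart in these pooled samples. Before centring, the median log2 ratio of INS over WT on this array was 0.87. On the other arrays it was 0.27 (CLP culture), 0.96 (B cells), 1.01 (KSL culture) and -0.17 (CMP). Local background had a median of 57.8% of the foreground in WT for the members and 42.8% for the 6165 probes, and its part in these shares was not tested. All 37 members measured in only 1 colour passed through INS, and none through WT. This was general on the array: of the 6026 measured among the 6165 probes, INS reached 100 in 6012 and WT in 5720.

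The log2 ratio in T-ALL had a median of 0.34 over the 123 measured members and 0.06 over all 9154 measured probes. Of the 37 members measured only through INS, a choice that keeps out the lowest ratios, 36 lay above 0. Over the 86 measured in both colours the median was 0.20, against 0 by construction over all such probes. Of the 86, 56 (65.1%) lay above 0. At least 2-fold higher in INS were 20 of 123 (16.3%, where 4.29% of all measured probes and 2.22% of those past the signal minimum were). Only 2 were lower (1.63%, against 1.38% and 1.05%). Of the 20, 15 had a WT signal below 100 and 7 below 50. In both colours 5 of 86 were higher (5.81%, against 1.96%). The 305 probes higher in the CLP culture but within 2-fold in the B cells gave 12.2% of 286, or 7.63% of 236 in both colours. The 26 probes higher on both arrays of the rule gave 36.4% of 22, or 31.2% of 16 in both colours, a larger share than the members', and the difference between the lists was not tested.

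Among members measured in both colours in T-ALL, M400005613 was highest, with 122 in WT and 907 in INS, 4.06-fold higher. M200015331 had 340 and 1668, 2.68-fold higher, and M200005682 had 134 and 616, 2.51-fold higher. All 3 kept at least 2-fold in every setting tried. The lowest was M200002810, with 2116 in WT and 1105 in INS, 3.51-fold lower. M300010273 had 654 and 364, 3.29-fold lower. M400011025, one of the 6 members with a signal above 20000 in WT B cells alone, had 384 and 382, with a log2 ratio of -0.88. So the 2 members that were 2-fold lower in INS T-ALL were also lower in INS B cells, by the rule, at 14.2-fold and 9.30-fold.

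As a description, the log2 ratios that chose the members differed with their T-ALL signal. The 30 members with less than 100 in both colours in T-ALL had median log2 ratios of 2.28 on the culture array and -2.65 on the B cell array, and the 86 measured in both had 1.56 and -1.65. In the KSL culture the 37 members measured in T-ALL only through INS had a median of 0.40, with 35 of 37 above 0. The 86 had 0.07, with 60 above 0, and the 30 had 0.27, with 21 of 28 measured ones above 0. This grouping was made after the values were seen. The same grouping of other probes was not made, so whether any of this is particular to the members is not known.

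**Figure D3:**
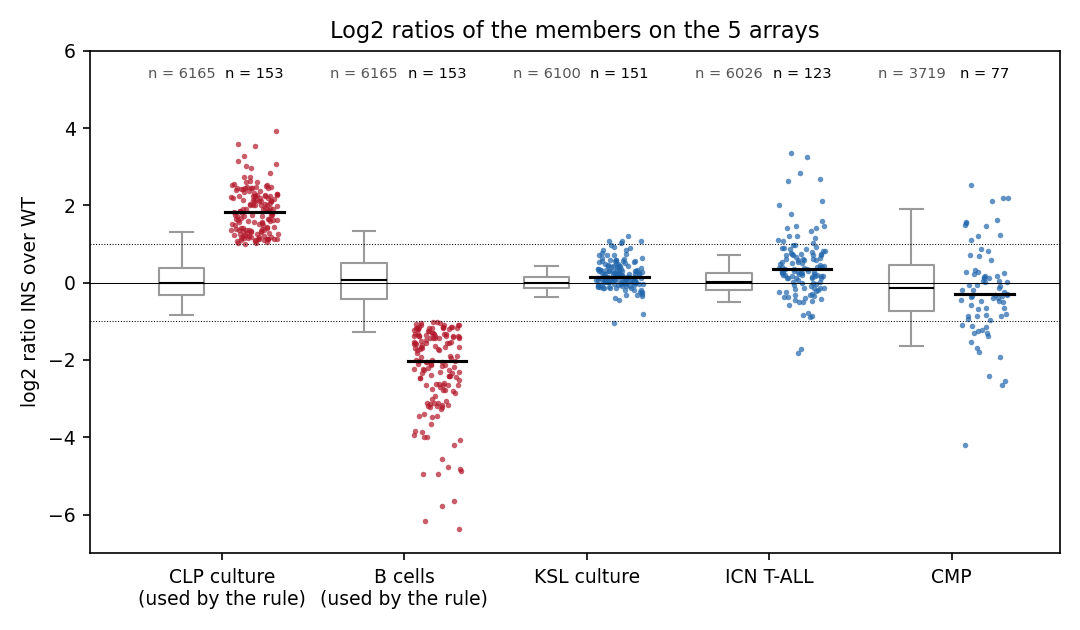
Log2 ratio of INS over WT (y axis) on each of the 5 arrays (x axis) for the members with a signal of at least 100 in either colour (points, bar at their median, numbers above) and, in grey, for the measured probes that passed the signal minimum (box from the 25th to the 75th percentile, whiskers from the 5th to the 95th). Red points are on the arrays that chose the members; the blue medians are 0.15 in the KSL culture, 0.34 in T-ALL and -0.30 in the CMP, where the points spread widest.

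In the CMP cells 77 of 153 members were measured, on an array that was dim as a whole. The WT signal reached 100 for 73 members (47.7%, against 57.7% of the 6165 probes) and the INS signal for 65 (42.5%, against 50.7%). WT signals ran from -2 to 19358 with a median of 83, and INS signals from -4 to 7370 with a median of 59. Over 77 measured members the median log2 ratio was -0.30, and it was -0.12 over all 4508 measured probes. Over the 61 measured in both colours it was -0.15. At least 2-fold higher in INS were 12 of 77 (15.6%, where 15.5% of all measured probes and 14.7% of those past the signal minimum were). Lower were 16 (20.8%, against 16% and 16.5%). In both colours 10 of 61 were higher (16.4%, against 14.8%) and 8 lower (13.1%, against 8.43%). These shares lay near those of all probes.

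M200000165 was highest in INS CMP cells, with 628 in WT and 3219 in INS, 5.78-fold higher. M200008372 had 112 and 454, 4.57-fold higher, and M400011064 had 835 and 3355, 4.53-fold higher. M400000065 was lowest among those measured in both colours, with 522 in WT and 121 in INS, 3.82-fold lower. M300010273 had 1362 and 419, 2.88-fold lower, and M300007284 had 2691 and 918, 2.60-fold lower. These 6 stayed at least 2-fold apart in every setting tried. M200012730, named after its value was seen, had 1855 in WT and 90 in INS, and at 18.3-fold lower it was the lowest of all measured members.

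Of 153 members, 104 (68.0%) were 2-fold apart on none of the 3 arrays outside the rule where measured, against 78.4% of the 6165 probes. All 3 arrays measured 64 (41.8%, against 59.5%), and 2 members were measured on none. At least 2-fold higher on 2 or more of them were 3 members (1.96%, against 0.227%), and 1 was lower on 2 (0.654%, against 0.243%). M200008372 was at least 10.3-fold higher in INS T-ALL, where WT had 29 and INS 943, and higher in INS CMP cells. It therefore was higher with INS on 3 arrays and lower only in the B cells, with 188 in WT and 74 in INS. M400011064 was higher in INS T-ALL (58 in WT and 281 in INS) and CMP cells, and M400004604 in the KSL culture and T-ALL (88 and 370). For M400011064 and M400004604 the T-ALL difference fell below 2-fold in at least 1 other setting. M300010273 was the only member lower on 2 of these arrays, in T-ALL and the CMP cells, so that the CLP culture was the only array on which it was 2-fold higher.

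**Figure D4:**
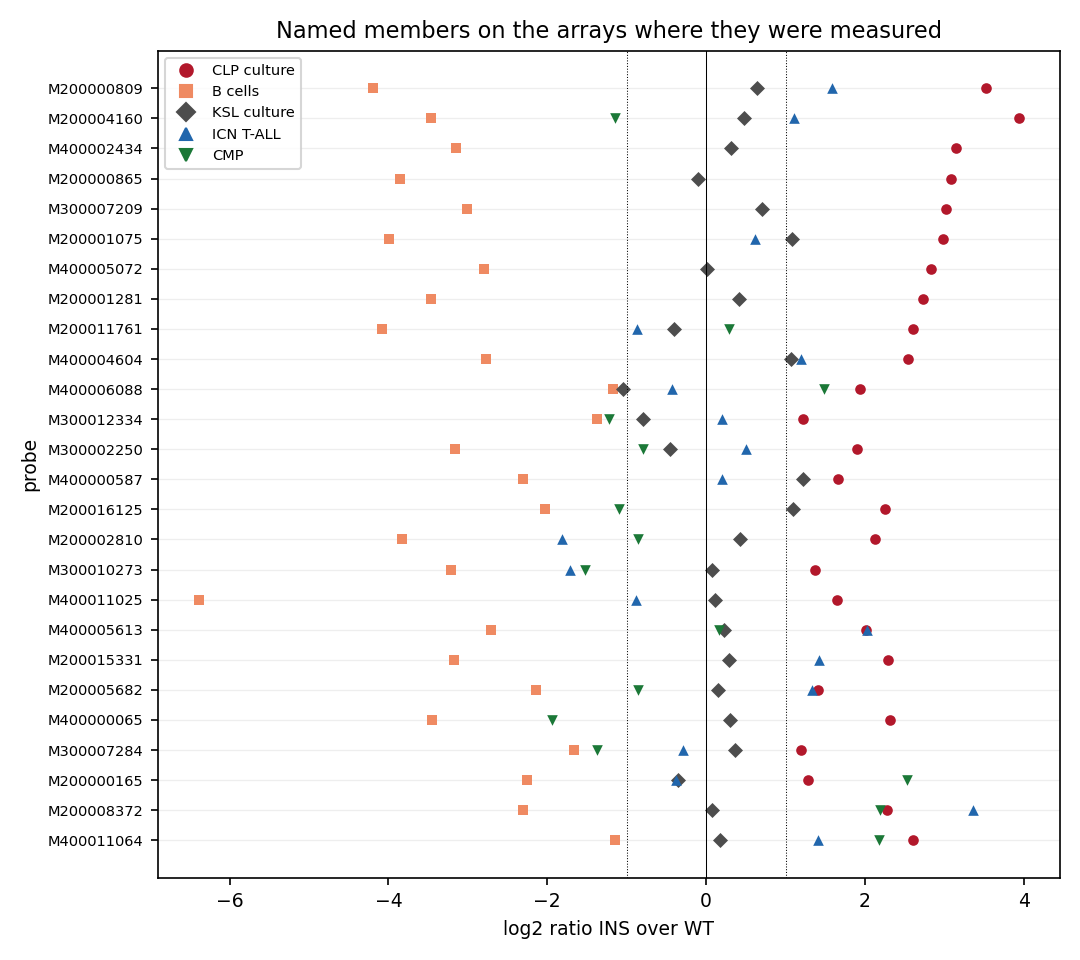
Log2 ratio of INS over WT (x axis) of the 26 members named by rule (y axis), 1 symbol per array on which the member had a signal of at least 100 in either colour, with dotted lines at 2-fold. The circles (CLP culture) lie right and the squares (B cells) left of the 2-fold lines by the rule, the diamonds (KSL culture) lie between -1.05 and 1.21, and triangles (T-ALL and CMP) fall on both sides.

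The members lay across the whole array. They were found in all 24 printing blocks, 3 to 9 in each, and 4 of 153 had another member in a neighbouring spot. IDs that begin with M2 made up 54.9% of the members (84), 46.0% of the 6165 probes and 34.2% of all. M3 IDs made up 22.9%, 27.1% and 29% in that order, and M4 IDs 22.2%, 27% and 36.8%. No member's spot was flagged as bad on any array. The local background around the members' spots had a median of 52.2% of the foreground in WT and 54.1% in INS in the CLP culture, against 48.3% and 54.3% for the 6165 probes. In the B cells these were 41.7% and 53.3%, against 41.0% and 47.3%. With the local background subtracted in place of the blank spots, the rule found 86 probes, of which 65 were members (42.5% of the 153 and 75.6% of the 86).

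The authors' deposited table of log2 ratios gave a value for all 153 members in the CLP culture, the B cells and the KSL culture, for 149 in T-ALL and for 139 in the CMP. Their medians in the authors' deposited table were 1.75, -1.83, 0.15, 0.31 and -0.29 in that order. By the authors' deposited table, the number of members that were at least 2-fold higher in the CLP culture was 145, and 140 were at least 2-fold lower in the B cells. The members were chosen on these 2 arrays, and the authors' ratios come from the same arrays. So these 2 counts are not independent of the rule.

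The probes most like the members' median pattern that were no members missed only by their WT signal in the CLP culture. M400005814 (WT signal 82), M200008833 (95) and M200002090 (82) had the smallest distances over the 5 log2 ratios, 0.39 to 0.48. Likeness was a Euclidean distance over 5 arrays to medians over all 153 members, measured or not. Those were 0.20 in T-ALL and 0.17 in the CMP, not the 0.34 and -0.30 of measured members. Probes at the floor in both colours take 1 fixed ratio on an array. In the CMP the median was that ratio, and these 3 probes took it too, so the CMP adds nothing to their likeness.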

How the data were processed

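The deposited scanner files give an intensity for each spot in Cy5 and Cy3 on a linear scale. Per the file headers, the fields for normalization and background are empty. Per the labels' protocols, amino allyl aRNA was made from total RNA and then dye-coupled. No source used here names the scanner or image software. A value table deposited by the authors has log2 ratios for these arrays; their background correction and filter are unknown. Its column medians lay between -0.000048 and 0.000004, and it followed the scanner ratios (INS over WT) with r of 0.897 to 0.967 across measured probes. It served as an alternative.

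The median of the blank spots was subtracted, signals were raised to at least 50, and log2 ratios were centred on the array's median. A probe counted as measured with a signal of at least 100 in either colour. Higher and lower mean at least 2-fold. Spots of a probe were averaged. A fold with the dimmer signal below 50 is a lower bound. There was 1 array per setting, so no p-value was computed. The floor, the ratio and its centring were tested on simulated signals. The blank subtraction, the averaging of spots and the rule were not. Python 3.11.15, numpy 2.4.6, pandas 2.3.3, R 4.3.3 and limma 3.58.1 (loess and normexp alternatives) were used.

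The members and lists were chosen with earlier results of these data known. Named probes were the 10 members with the largest smaller side of both ratios of the rule, the 3 highest and 3 lowest on each other array among members measured in both colours, members 2-fold the same way on at least 2 of those 3 arrays, probes beside the thresholds, and the 3 likest other probes. Gene lists could not be evaluated, since IDs have no gene names here.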

Additional observations from a re-analysis of the deposited data

Results flagged for a closer look

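Differences between settings in opposite directions stood out, none of which was tested, since each setting has 1 array. The 153 members were at least 2-fold higher in INS in the CLP culture and at least 2-fold lower in the B cells because the rule chose them so. Outside the rule, 3 members (1.96%, against 0.357% of the 6165 probes) were 2-fold apart in opposite directions. M200016125 was higher in the KSL culture (log2 ratio 1.09) and lower in the CMP (-1.09), where INS had a signal of 59. Its KSL ratio stayed 2-fold in 5 of 7 settings and its CMP ratio in 4 of 6, with the smallest at -0.56. M200004160 was higher in T-ALL (1.10), where WT had a signal of 62, and lower in the CMP (-1.15). It stayed 2-fold in 3 of 6 settings in T-ALL, with the lowest at 0.70. Those were the authors' values (1.07) and the changes of the floor, which left the ratio as it was. In the CMP its ratio stayed 2-fold in 5 of 7, with the smallest at -0.80. M400006088 was higher in the CMP (1.49) and lower in the KSL culture (-1.05), where both signals were above 20000. Its CMP ratio stayed 2-fold in all 7 settings and its KSL ratio in 5 of 7, with the smallest at -0.56. In the KSL culture the mean log2 ratio of positive control 3 was -1.10.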

How the results depend on the processing

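The number of members was 153, and 86 with the local background subtracted, 264 and 83 with a WT signal minimum of 50 and 200, and 76 with a log2 threshold of 1.5. Normexp with loess, loess, a floor of 20, the authors' value table and a floor set after scaling gave 132 to 166. The members' median in the KSL culture was 0.28 with the local background subtracted, against 0.06 over all probes measured so. Members 2-fold higher there were 2 with normexp and loess, where 0.319% of all measured probes were. Members lower there were 0 with normexp and loess (0.0411% of all measured probes) and 0 with loess alone (0.0103%). With no filter on low values they were 3, against 49.8% of all probes, since any probe at the floor in both colours then counts as lower. In T-ALL the median was 0.47 with the local background subtracted, 0.26 with loess, 0.20 with no filter and 0.20 with both colours at 100 or more. Over all probes in each setting it was 0.16, -0.01, -0.87 and 0 in that order. By the authors' values, T-ALL had 33 higher and 4 lower of 149 members (6.38% and 1.63% of all probes with a value) and the CMP 18 higher and 28 lower of 139 (11.2% and 15.1%). With both colours at 100 or more, 5 were higher in T-ALL, and in the CMP 8 were lower and the median was -0.15, against 0 over all such probes. The CMP median was -0.063 with loess, against -0.038 over all measured probes. With no filter it was 0.17 for the members and for all probes, the value that any probe at the floor in both colours takes there. Of 25 named 2-fold ratios outside the rule, none reversed and 17 stayed at least 2-fold. Where both signals were at least 100, a floor of 20, a floor set after scaling and both colours at 100 or more left the ratio unchanged. For such ratios these settings add nothing to the counts. Other causes were not tested. A floor set after scaling and both colours at 100 or more were chosen after seeing the data. No paired analysis was possible because each setting has 1 array, and no replicate could be left out. Signals under 50 limit 10 ratios in the B cells to bounds.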
